A study of Mus musculus with 4 samples.

Results

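What captopril did to the RNA of kidneys without experimental disease was examined from 1 pair of arrays, as the level on the array labelled Saline+Captopril minus the level on the array labelled Saline+Water. The values were deposited on a log2 scale, so that a difference of 1 is a 2-fold difference. The probe set brightest on average over the 4 arrays of the series stood for its gene, and genes were kept from a mean of 6.27 upward, the 40th percentile over every probe set. This left 8207 of the 12394 genes with a probe set of their own. Those genes were then sorted by which of the 4 arrays stood apart, since the Saline+Water array differed from the others in its control probes.

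The study induced chronic glomerulonephritis (GN), in which the glomeruli that filter blood are inflamed, in mice and gave some of the animals captopril. There were 4 groups of 6 male C57BL/6 mice, labelled 17 weeks old, and 1 array of whole kidney RNA per group. The labels do not say whether an array holds 1 mouse or a pool. Saline+Water mice received intraperitoneal 0.15 M NaCl and plain drinking water, and Saline+Captopril mice received the same injections with captopril in the drinking water at 100 mg/kg/day. GN+Water mice were injected with horse spleen apoferritin (10 mg, 5 days per week) and with the adjuvant lipopolysaccharide (100 µg, 3 times per week), and drank water. GN+Captopril mice received those injections and captopril. Injections began at about 8 weeks of age and lasted 6 weeks, and kidneys were taken after 9 weeks. With 1 array per group no difference has a replicate check, so no error, p-value or test is given for any value. In whole kidney RNA, fewer cells of a type and less RNA per cell cannot be told apart.

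Captopril blocks angiotensin-converting enzyme, the enzyme that makes the vasoconstrictor angiotensin II and that also breaks down the vasodilator bradykinin. Angiotensin II acts on the glomerular arterioles and, directly and through aldosterone, on salt transport along the renal tubule. A long course of such a drug lowers blood pressure and, through lost feedback, raises renin release from the juxtaglomerular cells of the kidney.

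Levels below are log2 values, first the saline arrays and then the GN arrays, each with water before captopril. The 18 probe sets for added spike-in RNAs had a median of 10.84 on Saline+Water and of 7.46 to 7.89 on the other arrays, and the 18S ribosomal RNA median was 6.32 there against 7.74 to 8.30. Over all probe sets, Saline+Water correlated with the other arrays at r = 0.945 to 0.966, while the other 3 correlated among themselves at 0.982 to 0.994. One array went against its label. The female-specific transcript Xist read 5.21, 5.18, 8.97 and 5.02, and the Y-linked gene Eif2s3y read 8.02, 8.29, 3.43 and 8.19, so the array labelled GN+Water carries these markers as a female kidney would. Both saline arrays match the male label by these 2 markers. The other Y-linked probe sets were mixed on Saline+Water. For Uty, 1 read 4.07, below the background limit of that array, against 6.24, 3.53 and 6.18, and another read 6.30, 6.30, 4.27 and 6.34. For Kdm5d, 1 read 4.63, 5.69, 3.52 and 5.64, with Saline+Water again below its background limit. The remaining Kdm5d probe sets were higher on Saline+Water than on Saline+Captopril, 1 of them at 4.53, 4.13, 3.82 and 4.11, below the background limit of each array. Kidney identity held on both: the 36 proximal tubule genes past the filter included the glucose transporter Slc5a2, which read 12.19 with water and 11.74 with captopril.

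In saline kidneys, 528 of the 8207 genes (6.43%) were higher with captopril by 2-fold or more, and 171 (2.08%) were lower by as much. The pair of GN arrays gave 114 genes (1.39%) and 92 genes (1.12%) by the same measure. The median difference over all genes in saline kidneys was 0.01. At 1.5-fold the saline pair gave 1278 higher genes (15.6%) and 835 lower genes (10.2%).

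Nearly all of the 2-fold differences belonged to genes on which Saline+Water stood apart from all other arrays, captopril-treated or not. A gene was given to such a pattern where the arrays fell into 2 sets with a gap of at least 1.5-fold between them and a smaller spread within each set. Saline+Water alone was low for 966 genes (11.8%) and alone high for 584 genes (7.12%). These patterns took in 498 of the 528 higher genes and 158 of the 171 lower genes, 93.8% of both together. Both captopril arrays lay above both water arrays for 29 genes (0.353%) and below them for 8 genes (0.0975%). Saline+Captopril stood apart for few genes, alone high for 1 (0.0122%) and alone low for 6 (0.0731%). The rule for these patterns uses the same 4 values, so the counts describe the arrays and test nothing. The pair of GN arrays was not part of the saline difference, and 84.3% of the 528 higher genes and 91.8% of the 171 lower genes were within 1.5-fold between GN+Captopril and GN+Water, against 91.8% of all genes.

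**Figure D1:**
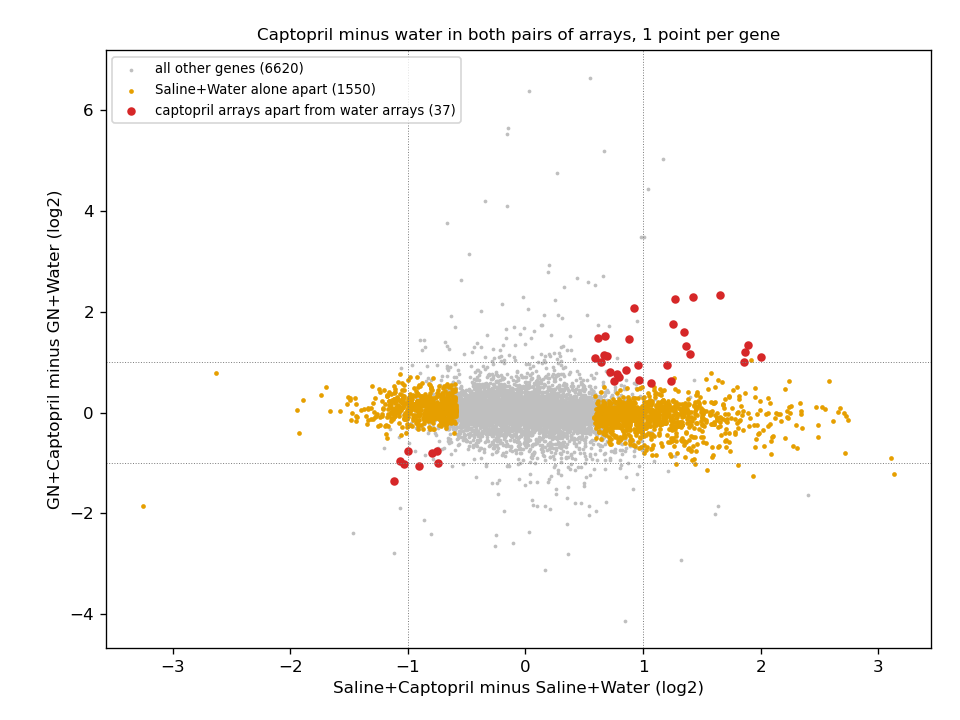
Difference between captopril and water arrays in saline kidneys (x axis, log2) and in GN kidneys (y axis, log2), 1 point for each of 8207 genes. Orange points, the 1550 genes with Saline+Water alone apart, lie in a flat band about 0 on the y axis, and the 37 red points, with the captopril arrays apart from the water arrays, lie in the upper right and lower left.

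A second reading of the same RNA was available for 2947 genes that have another probe set past the filter. In saline kidneys the differences of the brighter and the second probe set correlated at r = 0.229 over these genes. In GN kidneys the same measure gave r = 0.877 over the same genes and probe sets. Both correlations are across genes within 1 pair of arrays, and the probe sets of a gene share its RNA and its library. Of 305 genes at least 2-fold apart in saline kidneys by the brighter probe set, the second had the same sign for 203 (66.6%), and its median difference in that direction was 0.20 against 1.26 for the first. Of 61 such genes in GN kidneys the second had the same sign for 60 (98.4%), with a median of 1.38 against 1.37. The calmodulin-dependent phosphatase subunit Ppp3cb shows the disagreement: its brighter probe set read 6.49, 9.22, 9.35 and 9.29, a difference of 2.73, and its second gave 1.01. The chromatin remodeller Pbrm1 had differences of 2.71, 0.27 and 2.12 by its 3 probe sets.

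**Figure D2:**
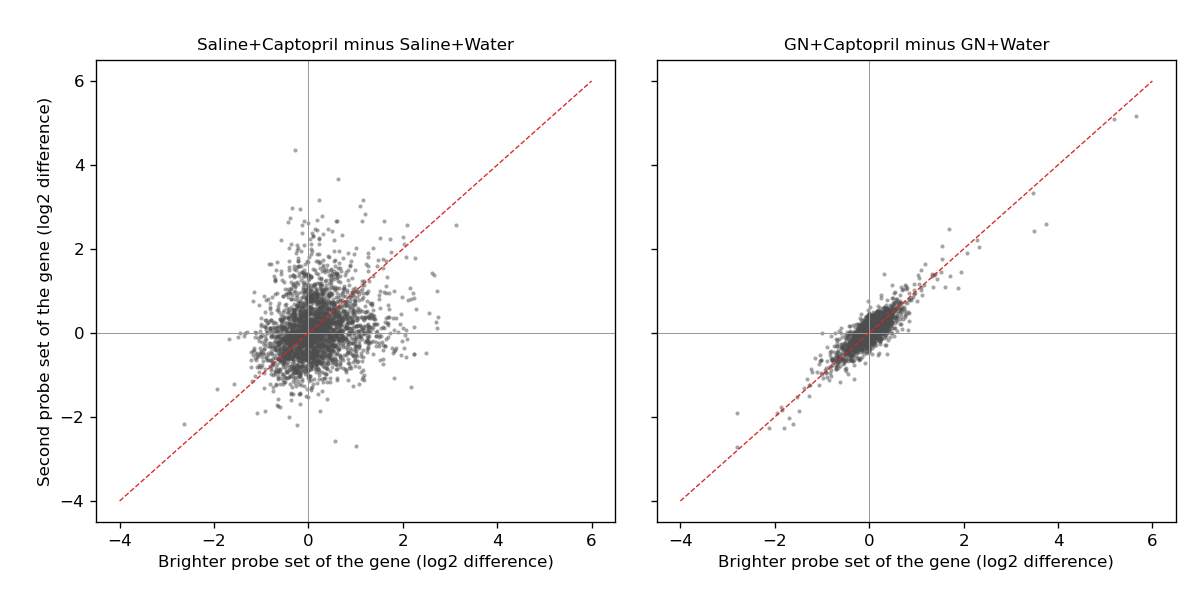
Captopril minus water by the brighter probe set (x axis, log2) and by the second probe set (y axis, log2) of the same gene, for 2947 genes, in saline kidneys (left) and GN kidneys (right). The dashed line marks equal values: points on the right follow it (r = 0.877), while points on the left spread along both axes (r = 0.229).

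Of the 29 genes higher on both captopril arrays, Serpina1b had the widest gap and Zbtb20 the largest saline fold. Serpina1b, an alpha-1-antitrypsin that inhibits neutrophil elastase, read 7.43, 9.09, 6.60 and 8.93. It was 3.15-fold higher with captopril in saline kidneys and 5.03-fold higher in GN kidneys, and its second probe set repeated the split at 7.33, 8.65, 6.46 and 8.51. Its near-copy Serpina1c read 6.84, 8.71, 6.99 and 8.20, with both captopril arrays above both water arrays. Members of this family share much of their sequence, so a probe set can read more than 1 of them. Alb, the plasma carrier albumin, read 7.48, 9.34, 8.08 and 9.09, a 3.62-fold difference in saline kidneys.

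Markers of other tissues were read beside these genes, from a list of 19 genes of hepatocytes assembled after the values were seen. Of the 13 past the filter, 5 were higher and 3 lower on Saline+Captopril by 1.5-fold or more, beside 15.6% and 10.2% of all genes. The list holds genes already picked by the captopril pattern: Alb, Serpina1b and Serpina1c are 3 of the 5, and Fgb is 1 of the 3. Its counts and levels are therefore no separate support for those genes. The mean level of the list was 7.11, 7.57, 6.98 and 7.40. Cps1, the urea cycle enzyme of hepatocytes, was below the filter at 5.26, 5.49, 5.28 and 5.42, while the hepatic Cyp3a11, also below it, read 4.31, 6.51, 4.28 and 5.27. The fibrinogen chain Fga went the other way at 9.20, 8.01, 8.15 and 7.90. The part of liver RNA in the result was not tested.

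Several enzymes of small-molecule metabolism were among the 29. Aldh1a7, an aldehyde dehydrogenase, read 7.30, 9.19, 7.72 and 9.06, which is 3.71-fold in saline kidneys and 2.52-fold in GN kidneys. Cyp2d9, a cytochrome P450 that is a classic male-biased steroid hydroxylase, read 10.09, 11.51, 8.95 and 11.24. Its lowest array was the one labelled GN+Water, which carries female markers. Over the 13 androgen-responsive genes past the filter the mean level of the list was 11.82, 11.96, 9.17 and 12.07, so the saline arrays differed little there and the array labelled GN+Water was far below. Akr1c14, a hydroxysteroid dehydrogenase, read 10.06, 10.74, 9.46 and 10.97. Upp2, the uridine phosphorylase of liver and kidney, read 5.73, 6.66, 5.33 and 7.42. For 18 of the 29 genes the array labelled GN+Water was the lowest and for 11 it was Saline+Water. The part of sex in the GN+Water levels was not tested. Both saline arrays carry the male levels of Xist and Eif2s3y.

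Car3, the carbonic anhydrase of muscle and fat that protects against oxidative damage, read 10.82, 12.19, 10.73 and 12.05. The captopril arrays were 2.58-fold above water in saline kidneys and 2.51-fold above it in GN kidneys. Its second probe set gave 8.88, 10.23, 8.60 and 9.99, again with no overlap between captopril and water. Adipoq, the fat cell hormone, read 6.24, 7.77, 8.25 and 8.92 and did not split by captopril, since the GN+Water array exceeded Saline+Captopril. Leptin (Lep), a further fat cell product, was below the filter at 4.87, 4.25, 4.22 and 4.02. The mean level of the 12 fat genes with a probe set was 7.46, 7.78, 7.65 and 7.95. Car3 itself is 1 of those 12, so this mean is no separate reading beside it. The part of fat tissue in the Car3 values was not tested.

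Secreted and vascular products were also among the 29. Cpe, the carboxypeptidase that trims prohormones, read 8.93, 10.20, 8.14 and 10.40. Esm1, an endothelial proteoglycan induced by vascular growth factor signalling, read 6.51, 7.85, 6.16 and 7.77. C1qtnf3, a secreted relative of adiponectin, read 8.61, 9.86, 8.19 and 9.95. In each of these 3 genes both water arrays were below both captopril arrays, and the saline difference was 2.41-fold for Cpe, 2.54-fold for Esm1 and 2.39-fold for C1qtnf3. The other endothelial genes did not follow Esm1 as a group. Of the 23 endothelial genes past the filter, 3 were higher and 3 lower on Saline+Captopril by 1.5-fold or more, beside 15.6% and 10.2% of all genes. Just 1 of the 23, Esm1 itself, had the captopril pattern. Esam, at 7.80, 9.03, 9.37 and 9.03, and Nrp1, at 8.42, 9.56, 9.94 and 9.69, were also higher, with Saline+Water alone low. Nos3, the endothelial nitric oxide synthase, was among the lower genes at 7.20, 6.23, 6.88 and 6.67.

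Regulators were fewer. Nr1d2, a repressor that is part of the circadian clock, read 8.73, 9.94, 9.29 and 10.24, and its second probe set read 6.56, 7.19, 6.60 and 7.62. Zbtb20, a transcriptional repressor of liver and pituitary, had the highest saline fold of the 29 at 4.00, from levels of 8.48, 10.48, 9.43 and 10.53. Its other 2 probe sets did not show that difference, with 0.11 and 0.05 in saline kidneys. The second of its probe sets read 9.81, 9.92, 8.52 and 10.03, so the array labelled GN+Water alone was low by it. Snhg11, a long noncoding RNA, read 6.62, 8.01, 6.58 and 7.73, with the captopril arrays apart from the water arrays.

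The other 15 genes of the 29 had gaps of under 2-fold. They were the cholecystokinin receptor Cckar, the drug and bilirubin conjugate exporter Abcc2, the proximal tubule adhesion protein Tmigd1, the hypoxia-induced carbonic anhydrase Car9, the ubiquitin ligase Wwp1, the acetyltransferase Nat2, and Sap30, Ctbs, Rpap3, Tm7sf3, Lactb, Tlcd2, Tstd2, Gsdme and 2310030G06Rik. Abcc2 read 8.93, 9.72, 8.89 and 9.60. Tmigd1 read 12.10, 12.77, 11.67 and 12.81. Over the 29 genes the gap between the water and captopril arrays ran from 1.51-fold to 2.82-fold and reached 2-fold for 11. At the median the captopril arrays lay 0.16 apart and the water arrays 0.37 apart. Car9, just inside the limit, had a gap of 0.59, and the apolipoprotein Apoa1, just outside it, had one of 0.56 from levels of 6.64, 7.49, 6.55 and 7.19.

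**Figure D3:**
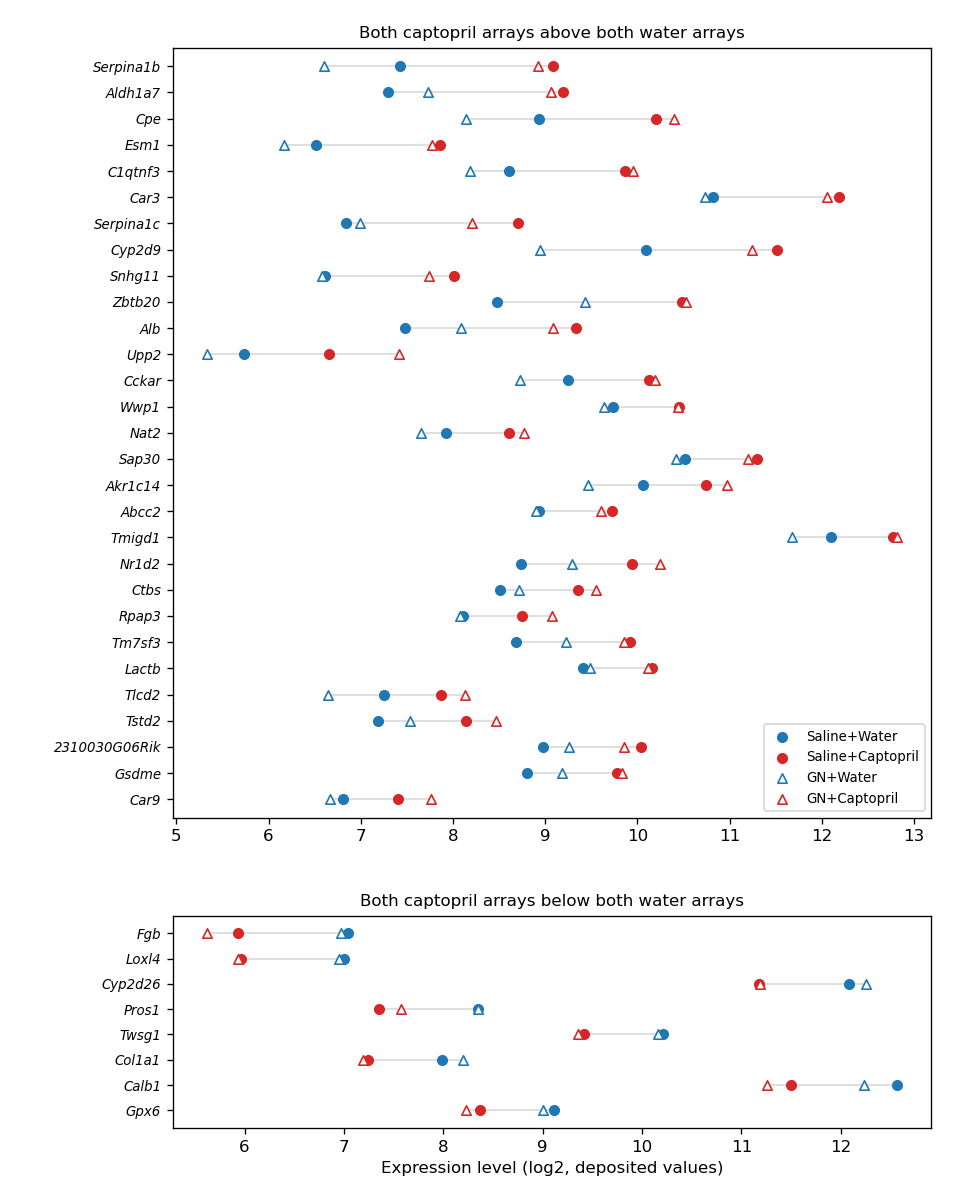
Levels (log2) of the 29 genes with both captopril arrays above both water arrays and of the 8 genes with both below, ordered by the gap. Filled circles are saline arrays and open triangles GN arrays, blue for water and red for captopril. In every gene drawn the blue and the red points do not overlap, as the choice of genes requires.

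The 8 genes lower on both captopril arrays included collagen-related, clotting and distal tubule genes. Col1a1, the main chain of fibrillar collagen I, read 7.99, 7.24, 8.19 and 7.19. Its second probe set differed by -0.59 in saline kidneys but by 0 in GN kidneys, and did not meet the gap rule. Loxl4, a lysyl oxidase that cross-links collagen, read 7.00, 5.97, 6.95 and 5.93, a 2.05-fold difference in saline kidneys. The second probe set of Loxl4 differed by -0.51 in saline kidneys and by -0.65 in GN kidneys, and also missed the gap rule. In saline kidneys the rest of the interstitial matrix list, which holds Col1a1 but not Loxl4, did not follow either gene. Of its 25 genes past the filter, 6 were higher and 2 lower on Saline+Captopril by 1.5-fold or more, beside 15.6% and 10.2% of all genes. The median was 0.14 against 0.01 over all genes, and Col1a1 was the 1 member with the captopril pattern. In GN kidneys 13 of the 25 were lower with captopril by 1.5-fold or more and 0 higher, while 91.8% of all genes were within 1.5-fold. The median there was -0.65, and 7 of the 25 had the array labelled GN+Water alone apart. Col3a1, the collagen III chain, read 8.74, 8.91, 10.62 and 9.69, and Dcn, the collagen-binding proteoglycan decorin, read 8.82, 9.74, 10.77 and 10.20.

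Fgb, the fibrinogen beta chain, had the widest gap of the 8 at 2.06-fold, from levels of 7.05, 5.93, 6.98 and 5.62. Pros1, the anticoagulant protein S, read 8.35, 7.35, 8.35 and 7.58. Twsg1, which binds bone morphogenetic proteins, read 10.21, 9.42, 10.16 and 9.36, and Gpx6, a glutathione peroxidase, read 9.12, 8.37, 9.00 and 8.23. Cyp2d26, a cytochrome P450, was among the most abundant at 12.08, 11.18, 12.26 and 11.19. In these 5 genes the water arrays lay close together, above the captopril arrays. A further probe set of Twsg1 differed by -0.036 in saline kidneys. A second probe set past the filter was present for 12 of the 37 genes of both directions. All 12 had the sign of the first in saline kidneys, but the second met the same gap rule in 3.

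Promoters of these genes are shown because 8 of them carried a short motif, chosen after the members were known. Of the 37 genes of both directions, 29 had a promoter in the RefSeq table. The motif is GTTAAT, or ATTAAC on the other strand, part of the recognition sequence of hepatocyte nuclear factor 1, a factor of liver and proximal tubule. It was searched on both strands in the 250 bases before each gene start. The 8 (27.6% of those 29) were Alb, Aldh1a7, Serpina1b, Serpina1c, Esm1, Upp2, Cyp2d26 and Fgb. It was in 6.43% of all 32851 promoters and in 5.41% of the 6651 of tested genes. The 29 promoters were also poorer in G and C, at a median of 50.4% against 60%. A match is a run of letters and not a shown site. Capitals mark the motif in the 150 bases before the start of 5 of these genes, on mouse build GRCm38.p6, written 5′ to 3′ on the gene's strand.
Alb chr5:90460720-90460869 (plus strand): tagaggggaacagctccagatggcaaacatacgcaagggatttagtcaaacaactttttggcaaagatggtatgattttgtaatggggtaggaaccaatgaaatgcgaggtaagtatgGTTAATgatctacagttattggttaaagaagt
Serpina1b chr12:103738190-103738339 (minus strand): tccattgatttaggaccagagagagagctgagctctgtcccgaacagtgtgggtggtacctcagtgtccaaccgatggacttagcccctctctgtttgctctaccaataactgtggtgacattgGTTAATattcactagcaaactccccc
Serpina1c chr12:103904951-103905100 (minus strand): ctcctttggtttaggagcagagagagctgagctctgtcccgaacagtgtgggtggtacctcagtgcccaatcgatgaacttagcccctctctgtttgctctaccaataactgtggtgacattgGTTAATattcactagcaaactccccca
Fgb chr3:83049864-83050013 (minus strand): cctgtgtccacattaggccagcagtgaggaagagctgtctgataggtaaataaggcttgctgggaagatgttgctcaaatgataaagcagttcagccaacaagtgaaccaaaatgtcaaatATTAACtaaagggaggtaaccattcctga
Cyp2d26 chr15:82794246-82794395 (minus strand): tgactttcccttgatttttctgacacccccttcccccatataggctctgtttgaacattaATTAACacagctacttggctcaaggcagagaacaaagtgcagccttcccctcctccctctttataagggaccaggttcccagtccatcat
In Alb, Serpina1b, Serpina1c and Fgb the motif begins 26 to 32 bases before the start, and in Cyp2d26 it begins 90 bases before it. Serpina1b and Serpina1c differ at 18 of 149 positions once shifted by 1 base, as near-copies would. Cyp2d26 and Fgb carry the motif and were lower on captopril, while the other 3 shown were higher.

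Genes of the pathway that captopril blocks did not move as a group. Of 19 renin-angiotensin genes, 14 had a probe set of their own and 11 passed the filter. Of these, 3 were higher and 3 lower on Saline+Captopril by 1.5-fold or more, beside 15.6% and 10.2% of all genes, and the median was -0.21, against 0.01 over all genes, while the mean of the 11 was 0.12. None of the 11 had the captopril pattern, and 5 had Saline+Water alone apart. Renin (Ren1) and the angiotensin receptor Agtr1a were not analysed here, because the platform annotation gives them no probe set of their own.

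Ace, the drug's target, read 9.48, 8.79, 8.30 and 8.82. Its second probe set read 9.92, 8.67, 8.01 and 8.52. By both, Saline+Water was the highest array and GN+Water the lowest, so captopril was below water in saline kidneys and above it in GN kidneys. Agt, the angiotensinogen precursor, read 9.51, 9.25, 9.40 and 9.07, with both captopril arrays below both water arrays by less than 1.5-fold. Enpep, the aminopeptidase that starts the breakdown of angiotensin II, read 10.28, 11.16, 10.98 and 11.10. Anpep, which acts on the next fragment, read 8.97, 8.35, 8.18 and 8.42. Atp6ap2, the prorenin receptor and a proton pump subunit, read 10.56, 11.69, 11.82 and 11.62, and its 3 probe sets differed by 1.14, 1.05 and 0.65. Mme, the peptidase neprilysin that makes angiotensin-(1-7) and degrades bradykinin, read 7.35, 9.15, 9.85 and 8.80, while its second probe set differed by 0.07 in saline kidneys. In Enpep, Atp6ap2 and Mme the Saline+Water array was alone low. Thop1, an oligopeptidase that cleaves angiotensin I, read 7.76, 7.08, 6.94 and 6.91, with Saline+Water alone high. The remaining 4, Ctsa, Prcp, Nln and Rnpep, differed by less than 1.5-fold in saline kidneys.

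No kallikrein-kinin gene past the filter differed by 1.5-fold between the saline arrays. The list holds 12 genes, 7 passed the filter, and their median was -0.09. Klk1, the kidney kallikrein that releases kinins, read 13.98, 13.90, 14.19 and 13.91. Kng1, the kininogen from which they are cut, read 11.20, 10.75, 11.29 and 10.75, so both captopril arrays were at one level below both water arrays, by less than 1.5-fold. Both bradykinin receptors were below the filter, Bdkrb2 at 5.34, 4.69, 4.61 and 4.71 and Bdkrb1 at 4.41, 4.50, 4.50 and 4.47.

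**Figure D4:**
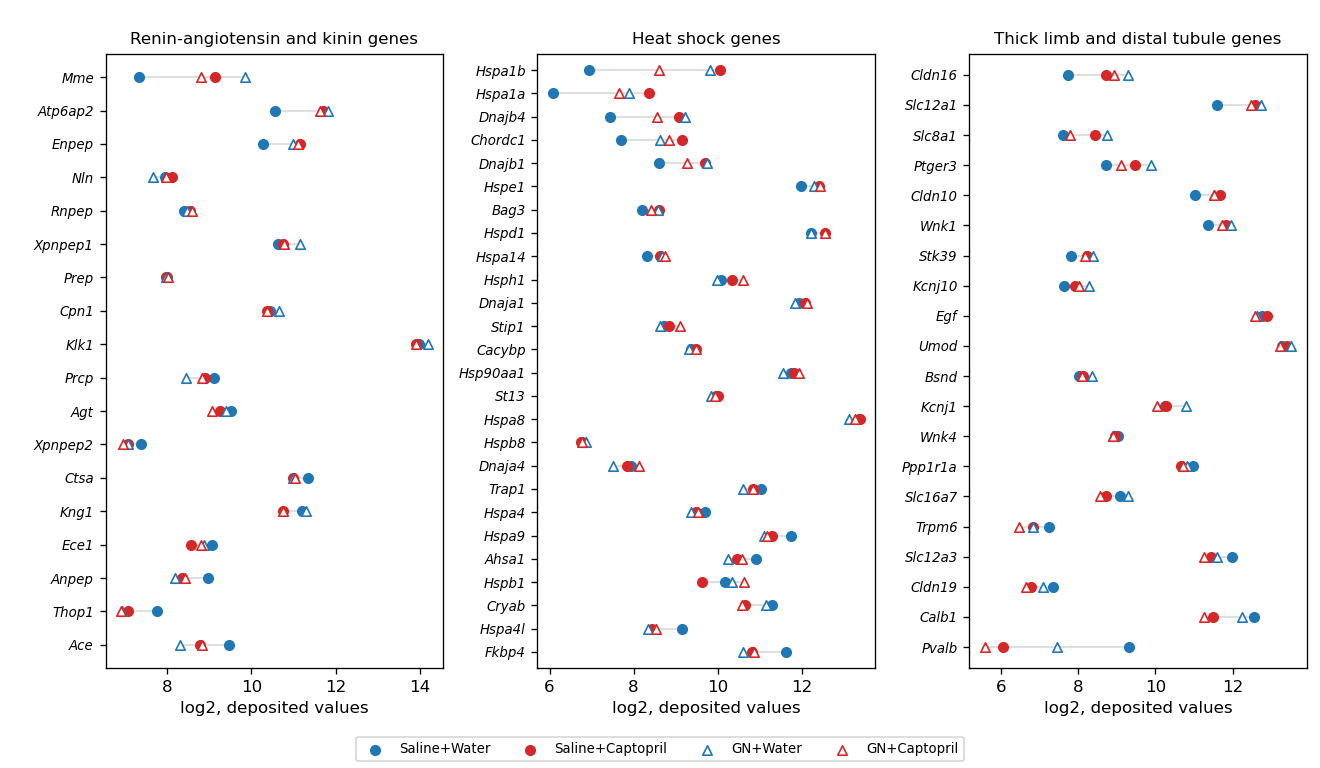
Levels (log2) on the 4 arrays of the genes past the filter in the renin-angiotensin and kinin lists, the heat shock list and the thick limb and distal tubule list, each ordered by the saline difference. For Mme, Atp6ap2, Enpep, Hspa1b, Hspa1a and Dnajb4 the filled blue point (Saline+Water) lies to the left of the other 3, and for Ace and Fkbp4 it lies to the right.

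Salt transport along the tubule lies downstream of angiotensin and aldosterone. In the thick limb and distal tubule list the largest difference was that of Pvalb, which was lower with captopril in both pairs. Pvalb, the calcium-binding parvalbumin of the distal convoluted tubule, had the largest fall of all 8207 genes, from 9.31 on Saline+Water to 6.05 on Saline+Captopril (9.52-fold), beside 7.44 with water and 5.57 with captopril in the GN pair (3.63-fold). Both captopril arrays lay below both water arrays, by 1.38 on the log2 scale, although the water arrays were themselves further apart than that, which put the gene under Saline+Water alone high. Pvalb is also a muscle gene: the mean level of 13 skeletal muscle genes was 5.83, 5.27, 5.24 and 5.17, 2 of the 13 passed the filter, and the part of muscle in its values was not tested. Calb1, the calcium-binding calbindin of the same segment, was the 1 member of the list with the captopril pattern. It read 12.56, 11.50, 12.23 and 11.26, a 2.10-fold difference in saline kidneys. Its second probe set, near 8, read 7.90, 7.79, 8.57 and 7.50, a smaller difference with the same sign. Slc12a3, the thiazide-sensitive salt carrier of that segment, read 11.99, 11.44, 11.58 and 11.27. Both captopril arrays were below both water arrays for Slc12a3, by less than 1.5-fold. Trpm6, the magnesium channel there, read 7.23, 6.82, 6.81 and 6.46, with Saline+Captopril level with GN+Water.

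Genes of the thick ascending limb differed among themselves. Slc12a1, the furosemide-sensitive carrier, read 11.60, 12.57, 12.74 and 12.47, and Cldn16, a claudin of the magnesium pathway, read 7.72, 8.72, 9.29 and 8.92, both with Saline+Water alone low. Umod, the uromodulin of this limb, read 13.28, 13.41, 13.52 and 13.22. Cldn19, the partner claudin of Cldn16, read 7.35, 6.77, 7.08 and 6.64, with both captopril arrays below both water arrays by less than 1.5-fold. Of the 20 thick limb and distal tubule genes past the filter, 5 were higher and 2 lower on Saline+Captopril by 1.5-fold or more. Over all genes the shares were 15.6% and 10.2%. The median of the list was 0.13. In the collecting duct list 4 of 19 genes were at least 1.5-fold lower and none higher, beside 10.2% lower and 15.6% higher over all genes. Among them Scnn1a, the alpha subunit of the epithelial sodium channel, read 9.41, 8.78, 8.98 and 8.45, while the acid-secreting pump subunits Atp6v0a4 and Atp6v1b1 had Saline+Water alone high. Of 14 aldosterone target genes 2 were higher and 2 lower, near those shares. Sgk1, the kinase that aldosterone induces, read 9.10, 9.70, 11.05 and 9.09, and Tsc22d3, a glucocorticoid-induced gene, read 7.51, 8.84, 9.03 and 8.46. The mean difference over the probe sets of Tsc22d3 was 0.63.

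The largest rise was that of a heat shock gene. Hspa1b, an inducible heat shock protein of the Hsp70 family, read 6.93, 10.07, 9.82 and 8.60, an 8.77-fold difference in saline kidneys, and its 3 probe sets differed by 3.13, 2.57 and 3.47. Its near-copy Hspa1a read 6.08, 8.37, 7.89 and 7.64. Their sequences are so alike that the probe sets may read both genes. In both, Saline+Water was alone low, and in GN kidneys captopril was below water. The cochaperones Dnajb4, at 7.44, 9.09, 9.23 and 8.56, and Chordc1, at 7.70, 9.14, 8.64 and 8.85, also had Saline+Water alone low. In GN kidneys captopril was below water for Dnajb4 and above it for Chordc1. Dnajb1, which activates heat shock protein of the Hsp70 family, read 8.60, 9.69, 9.75 and 9.28, but its second probe set differed by 0.17.

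The rest of the heat shock list was flat or lower. Of its 26 genes past the filter 5 were higher by 1.5-fold or more, the 5 just named, and 3 lower by as much, with a median of 0.09. These counts are to be read beside 15.6% higher and 10.2% lower over all genes. The abundant chaperones Hspa8, at 13.37, 13.38, 13.13 and 13.27, and Hsp90aa1, at 11.75, 11.83, 11.56 and 11.93, hardly differed between the saline arrays. Fkbp4, a cochaperone of steroid receptors, read 11.64, 10.82, 10.61 and 10.86, and Hspa4l read 9.15, 8.43, 8.34 and 8.53, both with Saline+Water alone high. Another probe set of Hspa4l, not shared between transcripts, differed by 0.067. The promoters of Hspa1a and Hspa1b are shown for their heat shock element, searched as GAANNTTC, which reads the same on both strands, and marked in capitals. It was in 6.69% of all 32851 promoters, in 6.31% of those of tested genes and in 7.84% of those with Saline+Water alone low.
Hspa1a chr17:34972157-34972306 (minus strand): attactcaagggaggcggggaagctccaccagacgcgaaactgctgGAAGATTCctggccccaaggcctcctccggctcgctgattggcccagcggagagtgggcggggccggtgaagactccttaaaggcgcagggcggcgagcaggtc
Hspa1b chr17:34959239-34959388 (minus strand): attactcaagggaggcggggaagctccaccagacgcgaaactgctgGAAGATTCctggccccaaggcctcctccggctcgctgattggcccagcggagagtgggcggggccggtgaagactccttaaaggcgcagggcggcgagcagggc
These 2 stretches, on build GRCm38.p6, differ at 1 of 150 positions, and the element begins 104 bases before the start in both.

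The largest rises beyond heat shock were almost all of the Saline+Water kind. Bex1, an adaptor of neurotrophin signalling, was at background on Saline+Water (4.69, against a limit of 4.81 set by the bacterial control probe sets) and read 7.80, 8.97 and 8.08 on the others, at least 7.93-fold higher on Saline+Captopril. Tex10, a chromatin-associated pluripotency gene, read 5.14, 7.88, 8.17 and 8.02, and its second probe set differed by 0.39. Ranbp2, a nuclear pore protein, read 6.62, 9.28, 9.19 and 9.21, and Bpnt2, a Golgi phosphatase, read 6.96, 9.57, 9.72 and 9.56. Sfpq, a splicing factor of paraspeckles, read 6.26, 8.98, 8.96 and 8.16. In each of these genes the 3 other arrays lay above Saline+Water by more than they differed among themselves, although they spread by over 2-fold for Bex1. Of the 12 largest rises 12 had this pattern, among them Cyp4a31, Ttc30b, Styx and Zfp326. Averaging all probe sets of a gene brought the difference to 1.04 for Sfpq, 1.49 for Bpnt2 and 2.02 for Ranbp2. It was 0.72 for Styx, and 0.48 without probe sets shared between transcripts.

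The largest falls after Pvalb mirrored this. Malat1, an abundant long noncoding RNA of nuclear speckles, read 11.35, 8.72, 7.84 and 8.63, a 6.21-fold difference, and its 5 probe sets differed by -0.34 to -2.68. Col4a3, a collagen IV chain of the glomerular basement membrane, read 11.22, 9.30, 9.50 and 9.09, whereas its partner chain Col4a5 went the other way at 6.65, 7.93, 7.94 and 7.93, or by 0.53 over all its probe sets. In all 3 the Saline+Water array stood alone. Palm, a membrane-shaping protein, read 10.54, 8.60, 8.83 and 8.88, and Slc25a23, a mitochondrial carrier, read 9.72, 8.06, 8.14 and 8.16. Ifi27l2b, Shc3, Slc1a4, Ptpa, Cep250, Rmnd5b and Ccdc166 completed the 12 largest falls, all with Saline+Water alone high. Slc1a4 differed by -1.69, but by -0.53 over all its probe sets and by -0.15 without those shared between transcripts, and Ccdc166 by -0.76 over all its probe sets.

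Housekeeping groups held genes of this kind, to be read beside the shares over all genes: 15.6% higher, 10.2% lower and 11.8% with Saline+Water alone low. Of 72 ubiquitin-conjugation genes, 20 were higher and 3 lower on Saline+Captopril by 1.5-fold or more, with a median of 0.23, and 15 had Saline+Water alone low. Fbxo22, a substrate receptor of a ubiquitin ligase, read 8.63, 10.86, 10.72 and 10.75, and Fbxo11, of the same kind, read 5.59, 7.67, 7.93 and 7.70. Of 75 splicing factor genes 18 were higher and 8 lower, among them Hnrnpk, an RNA-binding protein, at 9.67, 11.35, 11.38 and 11.56. Of 127 vesicle traffic genes 24 were higher and 8 lower, near the shares over all genes, with Rab8b, a GTPase of exocytosis, at 5.33, 7.64, 8.74 and 8.04. Averaged over all probe sets the difference was 0.72 for Fbxo22 and 0.57 for Hnrnpk, and Hnrnpk had a difference of 0 without probe sets shared between transcripts. None of these 3 lists had a gene with the captopril pattern. Abundant groups had smaller shares: 5 of 76 respiratory chain genes were higher and none lower, 2 of 41 cytosolic ribosomal protein genes were higher and 2 lower, and 1 of 36 proximal tubule genes was higher and 1 lower. In the proteasome list 7 of 37 genes were higher and 1 lower. Over the 30 lists with at least 10 genes past the filter, medians ran from -0.21 for the renin-angiotensin genes to 0.23 for the ubiquitin-conjugation genes. The 13 hepatocyte genes past the filter, of the list added later, had 0.44. That list includes Alb, Serpina1b, Serpina1c and Fgb, which were picked by the captopril pattern.

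**Figure D5:**
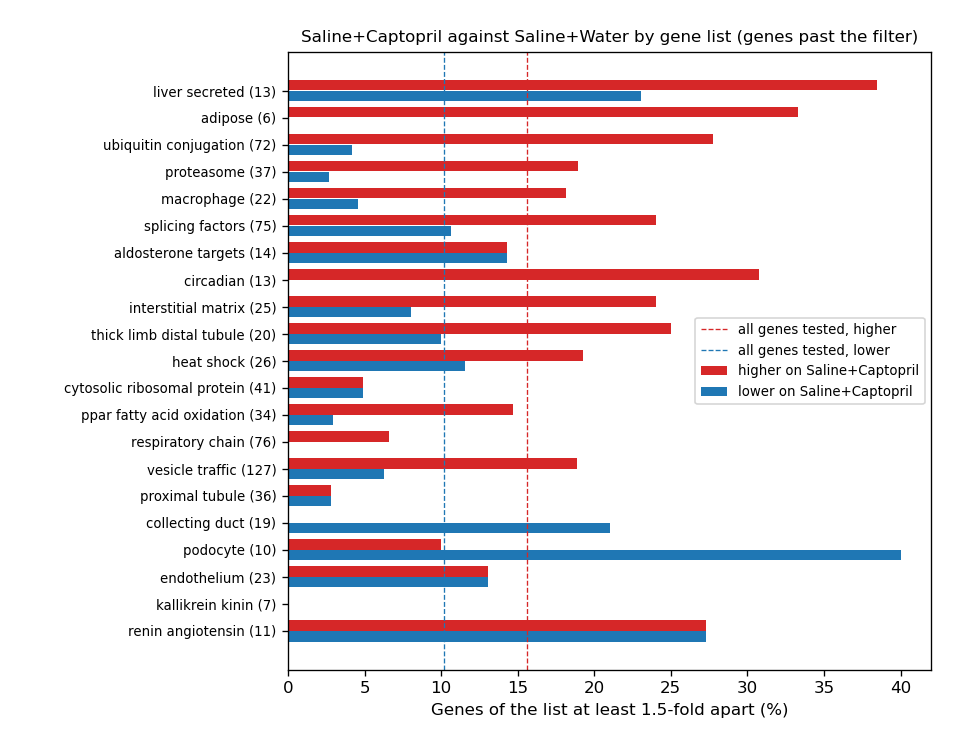
Percent of the genes of each list (number past the filter in brackets) that were higher (red) or lower (blue) by 1.5-fold or more with captopril in saline kidneys, ordered by the list's median difference. Dashed lines give the same shares over all 8207 genes, 15.6% higher and 10.2% lower; the ubiquitin-conjugation list reaches 20 of 72 higher, and the kallikrein-kinin list has no bar.

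Fatty acid and clock genes gave a few members of large size. Of 34 genes of the PPAR (peroxisome proliferator-activated receptor) and fatty acid oxidation list, 5 were higher and 1 lower by 1.5-fold or more. Over all genes the shares were 15.6% and 10.2%. The median of the list was 0.08. Cyp4a14, a fatty acid hydroxylase, read 8.33, 10.74, 11.48 and 9.85. Vnn1, the pantetheinase that recycles vitamin B5, read 9.93, 11.33, 10.58 and 10.88, with both captopril arrays above both water arrays by less than 1.5-fold. Ppargc1a, a coactivator of mitochondrial genes, read 7.54, 9.32, 9.40 and 8.96, and its 5 probe sets differed by -0.46 to 1.78. Acaa1b, a peroxisomal thiolase, was the 1 gene with Saline+Captopril alone high, at 12.09, 12.77, 11.76 and 12.11.

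Of 13 clock genes past the filter 4 were higher and none lower by 1.5-fold or more, beside 15.6% and 10.2% of all genes. Their median was 0.15 in saline kidneys and 0.66 in GN kidneys. Dbp, an output factor of the clock, read 8.51, 9.51, 7.48 and 10.96, so both captopril arrays lay above both water arrays, although the water arrays were over 2-fold apart and so were the captopril arrays. Clock and Wee1 had Saline+Water alone low. The main driver Arntl read 7.36, 7.13, 7.64 and 6.30, and the repressor Nr1d1 read 8.20, 7.86, 7.14 and 8.01. The hour at which kidneys were taken is not given in the sources used here.

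Macrophage genes gave counts near those over all genes. Of 22 macrophage genes past the filter 4 were higher and 1 lower on Saline+Captopril by 1.5-fold or more, beside 15.6% and 10.2% of all genes, with a median of 0.17. Ctss, the lysosomal cathepsin S, read 8.08, 9.08, 11.32 and 10.63, and the lysozyme Lyz1 read 8.99, 9.88, 13.36 and 12.70. Both GN arrays were above both saline arrays for Ctss and Lyz1. Spi1, the master regulator of myeloid cells, was instead alone low on Saline+Captopril at 6.53, 5.84, 6.81 and 6.55. The macrophage metal transporter Slc11a1, at 7.34, 6.64, 7.64 and 7.45, and the NF-kappaB subunit Relb, at 6.90, 6.03, 6.96 and 6.72, had the same pattern as Spi1. Pltp, the phospholipid transfer protein, read 8.59, 7.57, 8.87 and 8.49, and Isg20 and Tbc1d8 were the other members alone low on Saline+Captopril. Of 10 podocyte genes past the filter 4 were lower and 1 higher by 1.5-fold or more, beside 10.2% lower and 15.6% higher over all genes. The slit diaphragm protein nephrin (Nphs1) read 7.90, 7.08, 7.33 and 7.12. The actin cross-linker Actn4 read 11.49, 10.64, 10.80 and 10.69, with Saline+Water alone high. Ptpro, the 1 higher member, went the other way at 6.47, 7.44, 7.76 and 7.40, with Saline+Water alone low.

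Some genes were at least 2-fold apart in both pairs of arrays. In 21 of them the direction was shared, 15 higher and 6 lower with captopril, and 13 of the 21 were among the 37 genes with the captopril pattern. In another 11 genes captopril was above water in saline kidneys and below it in GN kidneys, and no gene went the opposite way. Those 11 included Mme and Hspa1b, with Saline+Water alone low, and Arg2, the mitochondrial arginase, at 4.97, 6.29, 9.53 and 6.61, which was alone high on the array labelled GN+Water.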

How the data were processed

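Whole kidney RNA of 4 groups was hybridised to 1 Affymetrix array each. The authors deposited 1 table of 22690 probe sets on a log2 scale. GCOS and RMA are named per the submitters' processing notes, with no version and no order, and no genome build is given in the sources used here. The depositors' normalisation was kept. Of the probe sets, 20393 map to 1 gene symbol through the platform annotation, 691 map to several and 1606 to none. Those with several or none were left out.

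For each gene the probe set with the highest mean was used, with a filter at the 40th percentile. Patterns need a gap of at least 1.5-fold and a smaller spread within each set of arrays. A level is at background at or below the 90th percentile of 27 bacterial control probe sets of its array. No test was possible with 1 array per group. Named genes are the 12 largest differences each way, the largest gaps of each pattern, members of the renin-angiotensin, kinin and heat shock lists, and up to 4 genes of each of 42 lists by size. Others named were chosen after their values were seen. The members and lists were chosen with earlier results of these data known. Promoters are from RefSeq (GRCm38.p6). Python 3.11.15, pandas 2.3.3, R 4.3.3 and limma 3.58.1 (loess alternative) were used.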

Additional observations from a re-analysis of the deposited data

Results flagged for a closer look

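In 6 of the named genes the captopril difference was at least 2-fold in both pairs of arrays and opposite in sign, higher with captopril in saline kidneys and lower in GN kidneys. The difference between the pairs was not tested, since each group has 1 array, and the GN pair includes the array labelled GN+Water with female markers. Cyp4a14, the fatty acid hydroxylase, differed by 2.41 in saline kidneys and by -1.63 in GN kidneys (log2). Fabp1, the liver fatty acid binding protein, differed by 1.64 and -1.85. Hspa1b differed by 3.13 and -1.22, and Mme by 1.80 and -1.04. Gsta2, a glutathione transferase, differed by 1.45 and -1.02. Jchain, the joining chain of secreted antibodies, differed by 1.61 and -2.01, from a Saline+Water level of 4.41, which is at background, so its saline difference is at least 2.32-fold.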

How the results depend on the processing

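Of 58 recomputed counts 37 stayed within 1.5 times the reported count, and the cause of the other changes was not tested beyond what each setting does by construction. Genes at least 2-fold higher on Saline+Captopril numbered 1278 at 1.5-fold, 140 at 3-fold and 327 with the mean of a gene's probe sets. They numbered 71 where a second probe set was also 1.5-fold apart the same way. Only the 2947 genes with a second probe set could meet that last setting, and 305 of them were 2-fold apart in either direction by the first. Genes at least 2-fold lower numbered 835, 8, 113 and 14 in these settings, 355 without the expression filter and 88 when it was raised to the 60th percentile. Genes with Saline+Water alone low numbered 418 at a gap of 2-fold. Those with Saline+Water alone high numbered 103 at that gap, 1271 without the filter and 326 with the 60th percentile. Genes with both captopril arrays above both water arrays numbered 11 at a gap of 2-fold, 1143 where the array labelled GN+Water was left out of the rule, and 207 where Saline+Water was left out. Those below numbered 1, 664 and 260 in these settings and 13 under cyclic loess. Leaving an array out, dropping the limit on the spread and requiring a second probe set were chosen after seeing the data. The mean of the renin-angiotensin list was 0.12 and that of the heat shock list 0.29. The saline difference of Cryab was 0.011 with the mean of its probe sets against -0.65 as reported. Without probe sets shared between transcripts that of Hspa4l was 0.067 against -0.72. Of 711 recomputed differences of 149 single genes, 686 stayed within 1.5-fold of the reported value, 23 moved further with the sign kept or at 0, and 2 reversed as above. Of the 37 genes with the captopril pattern, between 28 and 37 kept it under the filters, scalings and probe set choices tried. No paired analysis was possible because each group has 1 array. Each group's single array limits the precision, and its signal over background limits low genes.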

Other observations

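Some antioxidant genes were ordered by captopril in both pairs without meeting the gap rule. Nqo1, a quinone reductase, read 8.26, 9.24, 8.54 and 9.00 in the order used above, and catalase (Cat) read 11.48, 12.36, 11.98 and 12.23. Both captopril arrays were above both water arrays for Nqo1 and Cat. The share of all genes ordered in this way without a gap limit is not given here. The metal-binding metallothionein Mt1 was ordered the other way at 11.90, 11.31, 12.32 and 11.58. Of 22 genes of this antioxidant list past the filter, 3 were higher and 1 lower on Saline+Captopril by 1.5-fold or more, beside 15.6% and 10.2% of all genes. A further 11 genes lay higher and 4 lower on both captopril arrays by at least 1.5-fold, but with a spread among like arrays larger than the gap. The 4 were Pvalb, the water channel Aqp4, the histamine-forming enzyme Hdc and the growth factor Igf2, and the 11 included Dbp, the oxysterol hydroxylase Cyp7b1 and the acetyltransferase Nat8.

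Of 21 genes of endoplasmic reticulum chaperones and the unfolded protein response past the filter, 3 were higher and 1 lower on Saline+Captopril by 1.5-fold or more, no more than the shares over all genes. Dnajb9 read 8.83, 10.21, 10.24 and 10.22 and Hsp90b1 read 10.71, 11.57, 11.75 and 11.65, with Saline+Water alone low. Pdia4, a disulfide isomerase of the same compartment, read 9.37, 7.93, 8.21 and 8.05, with Saline+Water alone high. Of 35 chromatin remodelling genes 7 were higher and 7 lower on Saline+Captopril by 1.5-fold or more, beside 15.6% and 10.2% of all genes. The demethylase Kdm6a read 6.89, 8.48, 9.20 and 8.31, and the helicase Chd4 read 9.44, 7.96, 8.09 and 8.09.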
